A study of Homo sapiens with 8 samples.

Results

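The 10 genes followed here belong to the nuclear lamina and to heterochromatin: LMNA, LMNB1, LMNB2, LBR, HMGB1, HMGB2, CBX5, H2AFY, EZH2 and BMI1. They were chosen by name, as genes whose products are linked to the altered nuclei of senescent cells. Of the 10 genes, 9 had 1 row each among the 13841 rows of the count table, and all 9 were among the 11351 rows tested. LMNB2 was not analysed here. The cells were A549, an established human line from a lung adenocarcinoma used as a stand-in for alveolar epithelium. All cultures had been stretched cyclically for 24 h, at 15% elongation and 15 cycles per min, and kept for 6 days before sorting by β-galactosidase staining. The 4 positive libraries, which the labels call senescent, carry the numbers 1, 3, 4 and 5, and the 4 negative libraries the numbers 2, 6, 7 and 8. Both groups had been stretched, so the comparison sets stained against unstained cells of stretched cultures and holds no unstretched control. Whether the libraries stem from separate cultures is not stated in the labels. The p-values thus reflect the spread among these libraries alone, which may be technical.

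The nuclear lamina is a mesh of A-type and B-type lamins under the inner nuclear membrane, to which heterochromatin is tethered, in part through the lamin B receptor. Loss of lamin B1 and release of the DNA-bending HMGB proteins from the nucleus are widely used marks of senescence, and HP1 proteins and macroH2A gather in the condensed chromatin foci of some senescent cells. Polycomb proteins write and hold the repressive mark on lysine 27 of histone H3 and keep cell cycle inhibitor genes silent in dividing cells. LMNB1, HMGB2 and EZH2 are also known as genes of dividing cells.

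The sequence before the annotated start is shown for both measured lamin genes, whose highest values fell in different libraries, and for EZH2, which had the most CCAAT boxes of the members. These are RefSeq sequences of build GRCh38.p14, 5′ to 3′ on the gene's strand, each holding the 250 bases before the start site. Capitals mark CCAAT on either strand, read as ATTGG where it lies on the other strand. LMNB1 lies at chr5:126776373-126776622 on the plus strand, LMNA at chr1:156082323-156082572 on the plus strand and EZH2 at chr7:148884292-148884541 on the minus strand.
LMNB1: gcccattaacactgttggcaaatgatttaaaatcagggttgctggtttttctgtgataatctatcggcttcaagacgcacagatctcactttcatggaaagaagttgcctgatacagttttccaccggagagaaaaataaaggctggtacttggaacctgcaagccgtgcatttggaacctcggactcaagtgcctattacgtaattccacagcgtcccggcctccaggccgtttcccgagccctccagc
LMNA: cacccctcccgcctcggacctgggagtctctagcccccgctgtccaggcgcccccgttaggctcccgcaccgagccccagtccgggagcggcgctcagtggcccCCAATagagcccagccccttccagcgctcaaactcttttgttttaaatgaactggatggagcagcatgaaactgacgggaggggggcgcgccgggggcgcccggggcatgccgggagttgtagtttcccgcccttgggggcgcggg
EZH2: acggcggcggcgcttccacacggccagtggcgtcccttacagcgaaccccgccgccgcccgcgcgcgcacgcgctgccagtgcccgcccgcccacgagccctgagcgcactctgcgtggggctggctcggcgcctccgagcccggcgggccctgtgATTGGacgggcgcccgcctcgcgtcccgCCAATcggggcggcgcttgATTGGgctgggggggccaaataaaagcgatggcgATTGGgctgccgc
RefSeq windows of 300 bases, from 250 before to 50 after the start, were matched for 9 of the 10 members, all but HMGB2, taking the start nearest to that of the GENCODE gene. CCAAT on either strand was found in 4 of the 9 windows (LMNA, CBX5, H2AFY and EZH2), against 34.6% of all 35114 windows. The cell cycle homology region, searched as TTTGAA or TTCGAA on both strands, was found in 1 of 9, that of LMNB2, against 16.4% of all windows. An E2F motif, searched as TTTGGCGC, TTTCCCGC, TTTCGCGC or TTTGCCGC on both strands, was found in those of LMNA and EZH2, against 3.31% of all windows. The motif of EZH2 lies after the start, from base 2 to base 9, and that of LMNA overlaps a GC box. GC boxes, searched as GGGCGG on both strands, were found in 6 of 9 windows, against 45% of all windows. The LMNB1 window held none of the 4 motifs. These are matches of letters only.

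BMI1, LMNB1, LBR, H2AFY and CBX5 averaged lower in the positive cells, LMNA and EZH2 averaged higher, and HMGB1 and HMGB2 were near equal, but no member passed the threshold (edgeR's quasi-likelihood test, adjusted p under 0.05). Of all 11351 rows, 0 passed it (0% of rows). DESeq2's Wald test called 52 rows (0.458%) and no member. At an unadjusted p under 0.05 edgeR's test gave 1 of 9 members, against 14.4% of all tested rows, so the members' share was near the background. That member, BMI1, was lower in positive cells, as were 6.85% of rows, and 0 members were higher, against 7.52% of rows. The log2 fold change, positive over negative, was below 0 for 7 of 9 members and above 0 for LMNA and EZH2, with a median of -0.37, while it was below 0 for 51.9% of all rows, with a median of -0.02. With scaling by library totals alone the median over all rows moved to 0.10 and that of the members to -0.24, and 5 of 9 members were below 0. For no member were the 4 positive libraries wholly above or below the 4 negative ones, against 9.14% of all tested rows.

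Total counts ranged from 5634961 to 7990839 per library. Positive 1 and negative 2 stood apart, with a median Pearson correlation with the other libraries of 0.944 and 0.932 on log2(CPM + 1) values, against 0.969 to 0.978 for the other 6. Of 11351 rows, 53.3% had their highest CPM in one of these libraries. The epithelial markers were present in every library, KRT7 with at least 8142 counts and KRT18 with at least 2850. Of 8 fibroblast markers 6 had a row, and they summed to 19.4 to 20.5 CPM in positive and 18.8 to 22.2 in negative libraries, and of endothelial markers CDH5 alone had a row, with 0 to 9 counts. The leukocyte markers CD68, CD14 and LYZ summed to 70.2 to 75.1 CPM in positive and 57.0 to 75.5 in negative libraries. Their part in the results was not tested. In such sorted bulk samples, fewer cells of a type and less RNA per cell cannot be told apart.

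LMNB1 encodes lamin B1, the B-type lamin whose loss is used as a mark of senescence. Its CPM, the count scaled to library depth with TMM factors, was 14.8, 7.32, 7.59 and 10.7 in positive libraries 1, 3, 4 and 5, and 30.5, 7.11, 10.8 and 15.1 in negative libraries 2, 6, 7 and 8. The highest library was negative 2, at 2.02 times the next, while negative 6 was the lowest of all, and the groups overlapped. Positive cells averaged 10.1 ± 3.51 CPM and negative cells 15.9 ± 10.3 CPM (SD, n = 4 each). The log2 fold change was -0.66 ± 0.40 (SE), with a 95% interval from -1.53 to 0.21 and an edgeR adjusted p of 0.438. On the linear scale this is a ratio of 0.633, with an interval from 0.346 to 1.16. Without negative 2 the log2 fold change was -0.12 (edgeR unadjusted p = 0.708), and without positive 1 it was -0.90 (edgeR unadjusted p = 0.066). Without both of these libraries it was -0.35 (edgeR unadjusted p = 0.226). Without negative 6 it was -0.91 (edgeR unadjusted p = 0.0297, adjusted p = 0.297). The counts were low, from 42 to 210 per library. LMNB1 lies on chromosome 5 at 126776623 to 126837020 (GRCh38, GENCODE) and is protein-coding.

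LMNA encodes lamins A and C, which persist in senescent cells where lamin B1 is lost. It stood at 248 CPM in positive 1 and at 88.3, 62.8 and 92.0 in positive 3, 4 and 5, against 98.3, 85.3, 109 and 91.4 in negative libraries 2, 6, 7 and 8. Positive 1 was thus 2.28 times the next library, and positive 4 was the lowest. This gave a log2 fold change of 0.35 ± 0.35 (SE; 95% interval -0.40 to 1.11, edgeR adjusted p = 0.626), and without positive 1 it turned to -0.24. It was also below 0 with library weights in limma voom, at -0.12. LMNA lies on chromosome 1 at 156082573 to 156140089.

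The balance between the lamins was read within each library as the log2 ratio of LMNB1 to LMNA counts, which needs no scaling between libraries. Since amplicon counts do not give levels per length, the ratio is compared between libraries only. It was -4.05, -3.58, -3.04 and -3.09 in positive libraries 1, 3, 4 and 5, and -1.68, -3.57, -3.32 and -2.59 in negative libraries 2, 6, 7 and 8. Positive 1 and negative 2 lay at opposite ends and the 6 other libraries overlapped. Positive cells averaged -3.44 ± 0.48 and negative cells -2.79 ± 0.85 (SD, n = 4 each), a difference of -0.65 (exact two-sided permutation p = 0.257, 0.771 after Benjamini-Hochberg adjustment over the 3 ratios computed). Without both positive 1 and negative 2 the difference was -0.08. For HMGB1 to HMGB2 and for EZH2 to EZH1 the groups also overlapped, and the differences of 0.01 and 0.03 had an exact permutation p of 0.971 each (0.971 adjusted). The smallest p that 4 against 4 libraries allow is 0.0286.

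**Figure D1:**
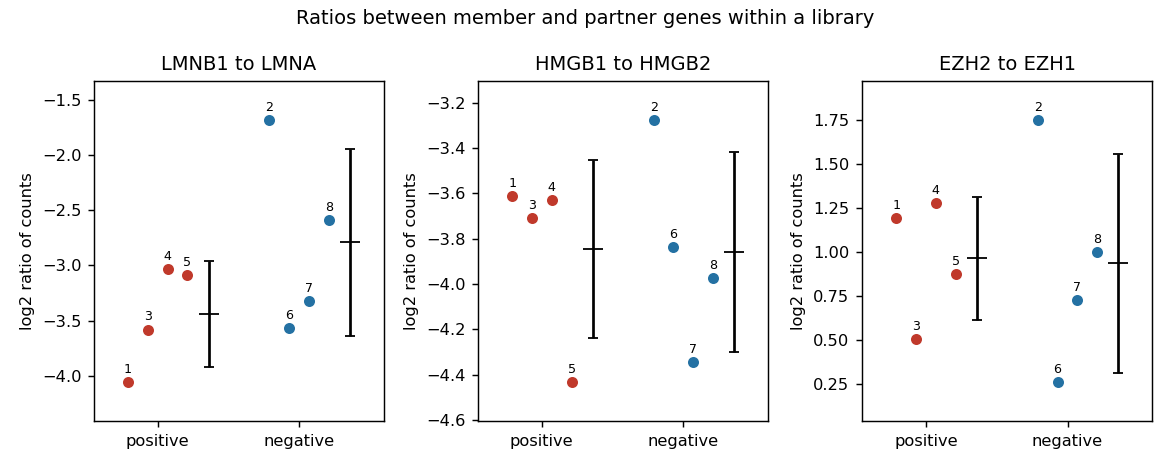
Log2 ratio of counts within each library (y axis) for 3 gene pairs, positive against negative libraries (x axis). Points are libraries with their numbers and bars are mean ± SD (n = 4). For LMNB1 to LMNA, positive 1 is lowest at -4.05 and negative 2 highest at -1.68.

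LBR encodes the lamin B receptor, an inner membrane protein that binds lamin B and HP1. Its CPM was 32.4, 20.5, 18.7 and 26.1 in positive libraries 1, 3, 4 and 5, and 46.7, 30.6, 28.9 and 31.7 in negative libraries 2, 6, 7 and 8. Positive 1 alone among the positive libraries reached into the range of the negative ones. The log2 fold change was -0.50 ± 0.23 (SE), with a 95% interval from -1.01 to 0.01 and an edgeR adjusted p of 0.354. It was -0.66 without positive 1 and -0.30 without negative 2. With positive 1 left out the groups part in any case, since it alone overlapped. With negative 2 also left out, the 3 positive libraries (21.8 ± 3.87 CPM) lay wholly below the 3 negative ones (30.4 ± 1.41 CPM, SD, n = 3 each). The same held for 8.28% of all rows. The log2 fold change was then -0.46 (95% interval -0.85 to -0.07, edgeR unadjusted p = 0.0230, adjusted p = 0.452). LBR was the only one of the 9 members whose groups parted in these 6 libraries, against 16.5% of rows in either direction.

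**Figure D2:**
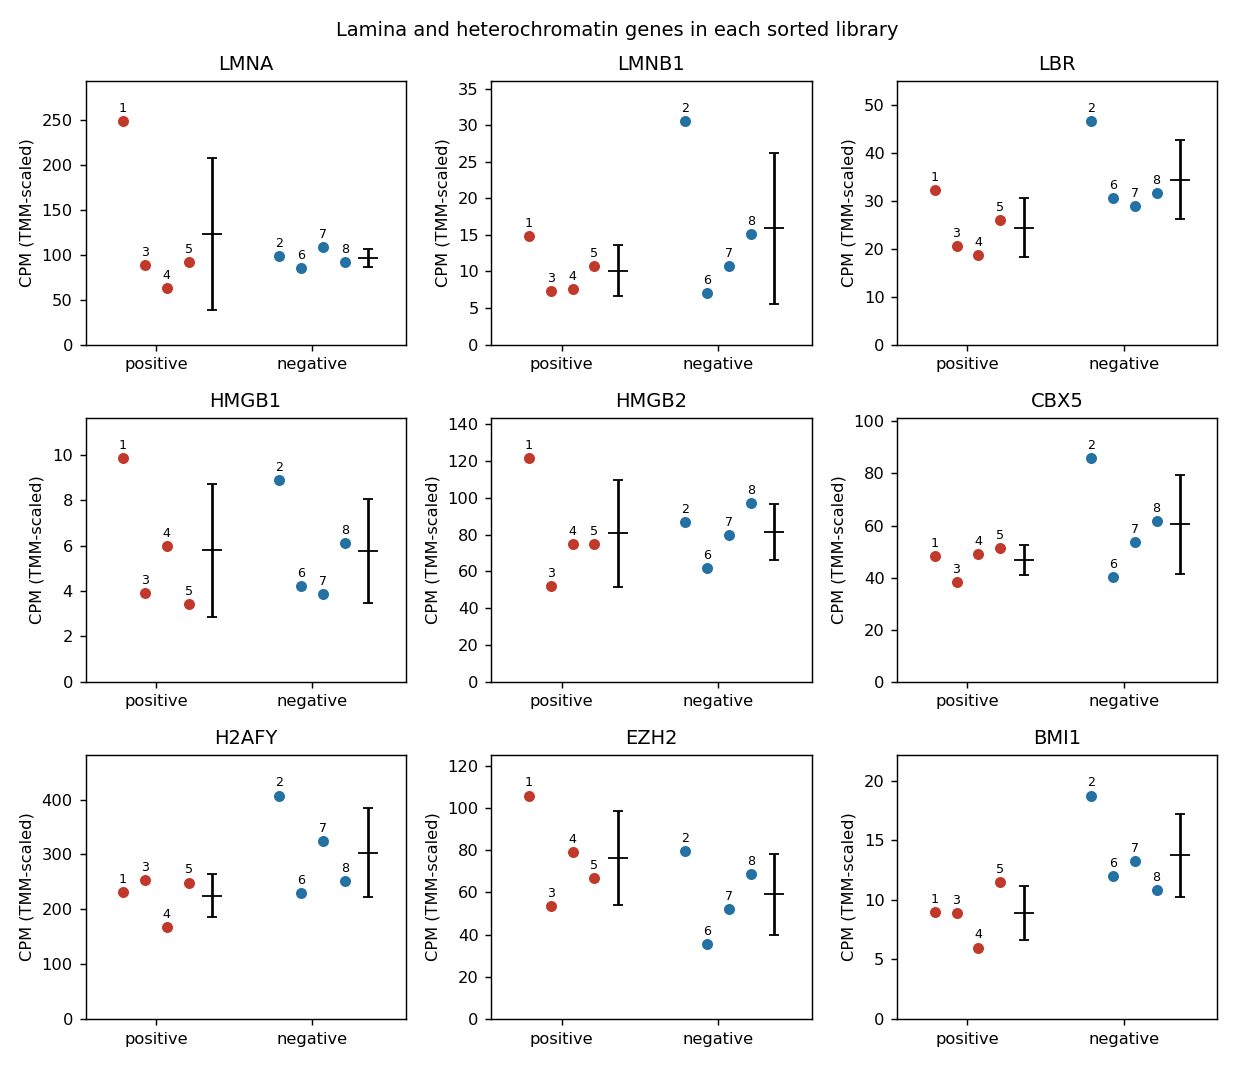
TMM-scaled CPM (y axis, from 0) of the 9 measured members in positive and negative libraries (x axis). Points are libraries with their numbers and bars are mean ± SD (n = 4). In every panel the highest point is positive 1 or negative 2, as for LMNA at 248 CPM and LMNB1 at 30.5 CPM.

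HMGB1 and HMGB2 encode DNA-bending proteins with HMG boxes. HMGB2 stood at 121, 52.0, 74.9 and 74.8 CPM in positive libraries 1, 3, 4 and 5, and at 86.7, 61.6, 79.8 and 97.4 in negative libraries 2, 6, 7 and 8. Both the highest and the lowest library were positive ones, 1 and 3. Positive cells averaged 80.8 ± 29.2 CPM and negative cells 81.4 ± 15.0 CPM (SD, n = 4 each). The log2 fold change of -0.01 ± 0.24 (SE) had a 95% interval from -0.54 to 0.52 (edgeR adjusted p = 0.984), which spans a ratio from 0.687 to 1.43, and it turned to 0.10 with scaling by library totals and 0.056 with upper quartile scaling. Without positive 1 it was -0.28 and without positive 3 it was 0.15.

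HMGB1 rested on 25 to 61 counts per library. It was at 9.84, 3.92, 6.00 and 3.41 CPM in positive libraries 1, 3, 4 and 5, and at 8.87, 4.23, 3.86 and 6.13 in negative libraries 2, 6, 7 and 8, so that positive 1 and negative 2 were again the highest. Here the log2 fold change was -0.01 ± 0.38 (SE; 95% interval -0.84 to 0.81, edgeR adjusted p = 0.990), but 0.12 with scaling by library totals and 0.059 with upper quartile scaling. It was -0.38 without positive 1 and 0.28 without negative 2. HMGB1 lies on chromosome 13 at 30456704 to 30617597 and has processed copies elsewhere in the genome. The row of 1 such copy, HMGB1P39, held 0 to 20 counts per library, and with its counts added to HMGB1 the log2 fold change was 0.07. The HMGB1 values are therefore uncertain, since reads of near-identical copies can be divided between rows. HMGB3, a paralog outside the 10 genes, was at 146, 91.7, 75.9 and 103 CPM in positive libraries 1, 3, 4 and 5, and at 273, 122, 164 and 131 in negative libraries 2, 6, 7 and 8. Its log2 fold change was -0.73 ± 0.28 (SE; edgeR unadjusted p = 0.0206, adjusted p = 0.312), and -0.40 without negative 2. Without both positive 1 and negative 2 it was -0.60 (edgeR unadjusted p = 0.00202, adjusted p = 0.319).

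CBX5 encodes HP1-alpha, which binds methylated lysine 9 of histone H3. It was at 48.2, 38.4, 48.9 and 51.5 CPM in positive libraries 1, 3, 4 and 5, and at 85.8, 40.3, 53.7 and 61.9 in negative libraries 2, 6, 7 and 8. The positive libraries lay close together and within the range of the negative ones except for positive 3, the lowest. Its log2 fold change was -0.37 ± 0.22 (SE; 95% interval -0.86 to 0.11, edgeR adjusted p = 0.435), and -0.14 without negative 2. Without negative 6 it was -0.53 (edgeR unadjusted p = 0.0294, adjusted p = 0.297). The other HP1 genes were CBX3, at 0.44 (95% interval -0.25 to 1.13), and CBX1, which averaged 1.03 CPM in positive and 0.953 in negative cells and was too low to be tested.

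H2AFY, now named MACROH2A1, encodes the histone variant macroH2A1. Its CPM was 231, 253, 167 and 248.8 in positive libraries 1, 3, 4 and 5, and 407, 229, 325 and 252 in negative libraries 2, 6, 7 and 8. Negative 2 and 7 stood above every positive library, and negative 6 and 8 fell among them. Its log2 fold change was -0.43 ± 0.21 (SE; 95% interval -0.90 to 0.03, edgeR adjusted p = 0.368), and -0.24 without negative 2. Without negative 6 it was -0.55 (edgeR unadjusted p = 0.0306, adjusted p = 0.297). Its relative H2AFY2 was at -0.23 (95% interval -0.60 to 0.14).

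EZH2 encodes the methyltransferase of Polycomb repressive complex 2. It was at 106, 53.3, 79.1 and 67.0 CPM in positive libraries 1, 3, 4 and 5, and at 79.8, 35.5, 52.2 and 68.6 in negative libraries 2, 6, 7 and 8. The positive libraries thus reached higher and the groups overlapped. Its means of 76.3 ± 22.4 and 59.0 ± 19.3 CPM (SD, n = 4 each) gave a log2 fold change of 0.37 ± 0.27 (SE; 95% interval -0.21 to 0.95, edgeR adjusted p = 0.504). It was above 0 in each of the 18 alternatives run, which reuse the same libraries. Its values there ranged from 0.17 without positive 1 (edgeR unadjusted p = 0.53) to 0.56 without negative 2 (edgeR unadjusted p = 0.0445, adjusted p = 0.501). EZH1, the paralog that persists in resting cells, was at 0.36 (95% interval -0.05 to 0.77).

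BMI1 encodes the PCGF4 subunit of Polycomb repressive complex 1, known as a repressor of senescence. Its CPM was 9.01, 8.89, 6.00 and 11.5 in positive libraries 1, 3, 4 and 5, and 18.8, 12.0, 13.3 and 10.8 in negative libraries 2, 6, 7 and 8. The groups overlapped by 1 library each, positive 5 standing above negative 8. Its means of 8.86 ± 2.26 and 13.7 ± 3.502 CPM (SD, n = 4 each) gave a log2 fold change of -0.63 ± 0.26 (SE). Its 95% interval of -1.20 to -0.06 was the only one among the 9 members without 0, but the edgeR adjusted p was 0.323 and its p ranked 1140 of 11351 rows. Without negative 2 the log2 fold change was -0.43 (edgeR unadjusted p = 0.114), and without both negative 2 and positive 1 it was also -0.43 (95% interval -0.96 to 0.11). The counts were 45 to 129 per library. An annotated readthrough gene with COMMD3 overlaps BMI1 on chromosome 10 and was not analysed here, so the value of BMI1 may include its reads.

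**Figure D3:**
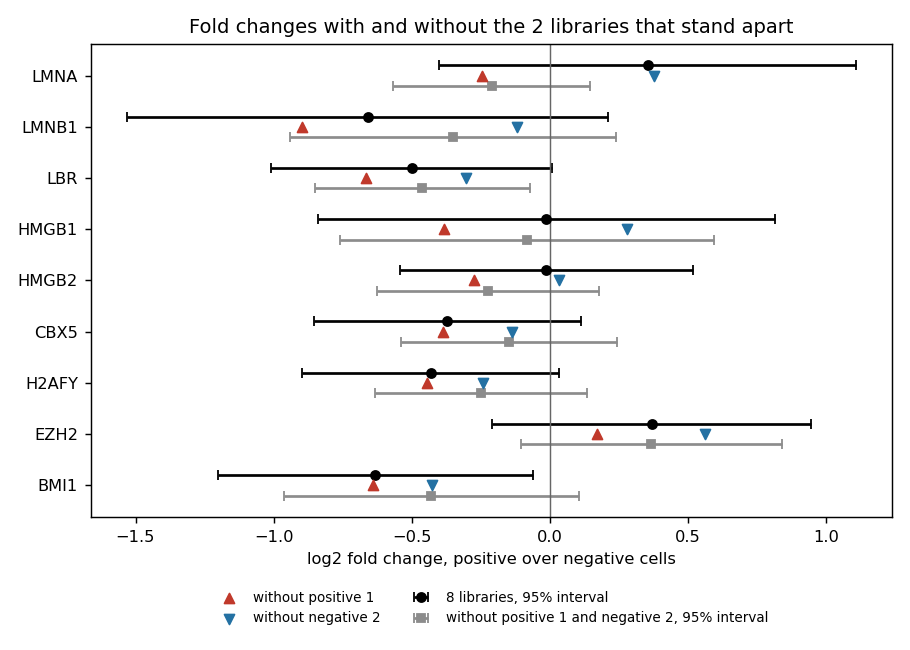
Log2 fold change of each member, positive over negative cells (x axis), with the edgeR 95% interval over 8 libraries (black circles) and without positive 1 and negative 2 (grey squares). Triangles give the value without 1 of these libraries. LMNA moves from 0.35 to -0.24 without positive 1, and LMNB1 from -0.66 to -0.12 without negative 2.

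Positive 1 and negative 2 held the highest values of the members. Negative 2 was the highest library for LMNB1, LBR, CBX5, H2AFY and BMI1, and positive 1 for LMNA, HMGB1, HMGB2 and EZH2, so that all 9 had their highest value there, against 53.3% of all rows. In negative 2 all 9 members were above their own median over the libraries, by a median of 0.70 on the log2 scale, and in positive 1 it was 6 of 9, by 0.44. Of the lowest values, 4 fell in positive 4, 2 in positive 3, 1 in positive 5 and 2 in negative 6. For the lowest values and for the counts above the median, the share over all rows was not computed. Without negative 2 alone, the log2 fold change was below 0 for 5 of the 9 members, with a median of -0.12 against 0.01 over all rows. Without positive 1 alone, it was below 0 for 8 of the 9, with a median of -0.39 against -0.02. Without both libraries it was below 0 for 8 of the 9, EZH2 at 0.37 being the exception. The median was then -0.22 against 0.01 over all rows, and 1 of 9 had an unadjusted p under 0.05, against 10.04% of rows.

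Proliferation markers stood out in the same library. Of 20 such genes, 17 were highest in negative 2, against 29.4% of all rows, and 2 in positive 1, against 23.9% of all rows. Of the same 20, 16 had a log2 fold change below 0, with a median of -0.56, and at an unadjusted p under 0.05 in edgeR's test 6 were lower and 0 higher, against 14.4% of all rows in either direction. Without negative 2, a setting added after the data were seen, 10 of the 20 were below 0, the median was -0.03, and 2 were lower and 1 higher at that p, against 9.70% of all rows. Their summed CPM was 4188 in negative 2, 2033 to 2266 in the other negative libraries and 1568 to 2464 in the positive ones, positive 1 being the highest of these. The cyclin gene CCNA2 was at 245 CPM in negative 2, 60.8 to 84.6 in the other negative libraries and 43.0 to 73.9 in the positive ones. The mitotic kinase gene PLK1 was at 157 CPM, 49.1 to 59.0 and 31.2 to 53.0 in the same order. For both genes positive 5 alone among the positive libraries reached into the range of the negative ones. MKI67 was at 125 CPM in negative 2, below positive 1 at 212. The log2 fold changes were -1.12 for CCNA2, -1.08 for PLK1, -0.56 for TOP2A and 0.21 for MKI67 (edgeR adjusted p of 0.312, 0.309, 0.341 and 0.656). Without negative 2 they were -0.41, -0.48, -0.21 and 0.18 (edgeR unadjusted p of 0.0751, 0.0408, 0.229 and 0.446). The part of proliferation in the members' values was not tested.

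**Figure D4:**
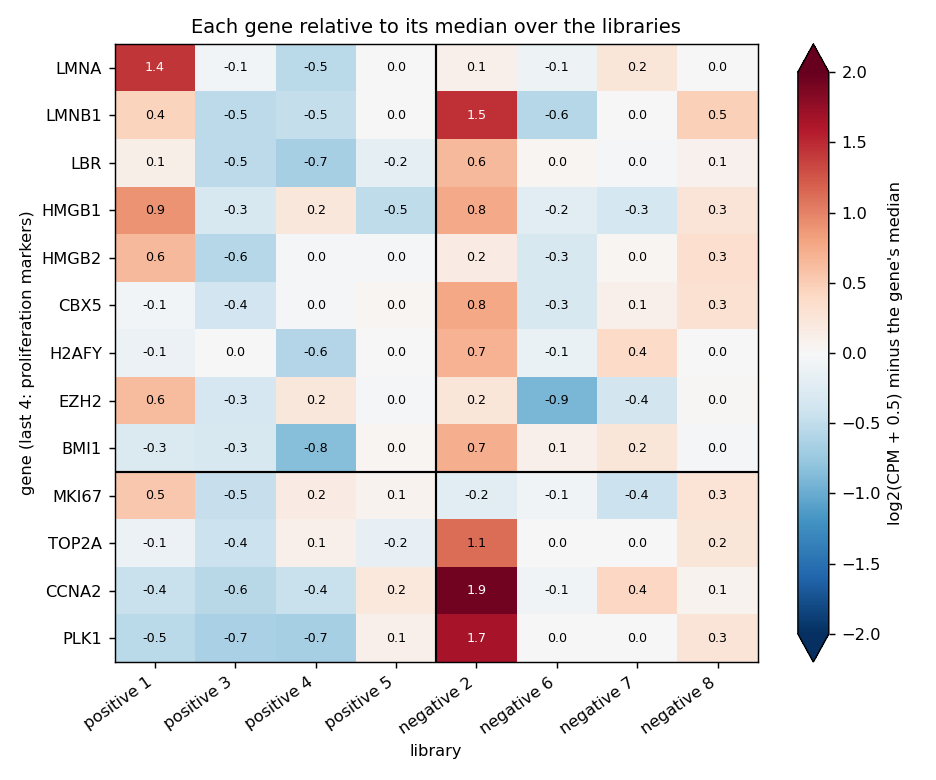
Level of each member, and of 4 proliferation markers below the line, in each library (x axis) relative to that gene's median over the 8 libraries, as log2(CPM + 0.5) differences (colour and printed value). Negative 2 is above the median for all 9 members, and positive 1 for 6 of 9.

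The wider gene groups around the members held no row past the threshold in edgeR's test. Of 24 tested genes of the lamina and inner membrane, 13 were below 0 and 11 above, with a median of -0.05. Without negative 2, the setting added after the data were seen, 14 of the 24 were below 0, with a median of -0.05. Over all 8 libraries 1 had an unadjusted p under 0.05, against 14.4% of all rows. That gene, ANKLE2, which acts in re-forming the nuclear envelope after mitosis, averaged 324 ± 35.7 CPM over the positive and 254 ± 24.1 CPM over the negative libraries (SD, n = 4 each), with 0.35 as its log2 fold change (95% interval 0.00497 to 0.69). Of the lower genes outside the 10 followed here, ICMT, which methylates the lamin tail, had the smallest p, at -0.40 (-0.90 to 0.09). Without both positive 1 and negative 2, ICMT was at -0.04 and ANKLE2 at 0.27. Of 9 tested HMG genes, 6 were below 0, with a median of -0.01. Without negative 2, 2 of the 9 were below 0, with a median of 0.14 and 0 at an unadjusted p under 0.05. Over all 8 libraries HMGB3 and HMGN2 had such a p, against 14.4% of all rows. HMGN2 was at 173 CPM in negative 2 and between 45.2 and 71.8 in the other libraries. HMGA1, an architectural protein of condensed chromatin foci, was at 0.34 (-0.07 to 0.75), and at 0.49 without both positive 1 and negative 2.

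Of 14 tested genes of HP1 and lysine 9 methylation, 9 were below 0, with a median of -0.14. At an unadjusted p under 0.05 there were 0, against 14.4% of all rows. Without negative 2, 5 of the 14 were below 0, with a median of 0.14, and 0 had such a p. TRIM28, a corepressor that recruits HP1, stood at 439 to 464 CPM in the positive libraries and 505 to 711 in the negative ones, without overlap, as in 4.14% of all rows in that direction. Its log2 fold change was -0.32 (95% interval -0.68 to 0.04, edgeR adjusted p = 0.377), and -0.18 without negative 2, which was its highest library. SETDB1, a lysine 9 methyltransferase, was at 0.46 (-0.10 to 1.03), and at 0.16 without both positive 1 and negative 2. Of 13 tested genes of histone variants and chaperones, 9 were below 0, with a median of -0.23 and 0 at an unadjusted p under 0.05. Without negative 2, 8 of the 13 were below 0, with a median of -0.03, and 0 had such a p. Over all 8 libraries ASF1A, a histone chaperone that takes part in forming such foci, was at -0.56 (-1.19 to 0.07). It was at -0.29 without negative 2, and at -0.09 without both positive 1 and negative 2. UBN2 was at 0.39 (-0.19 to 0.97), and also at 0.39 without both positive 1 and negative 2.

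Of 12 tested genes of Polycomb complex 2 and lysine 27 demethylation, 5 were below 0 and 7 above, with a median of 0.18. RBBP4, a histone-binding subunit, averaged 166 ± 33.4 CPM over the positive and 250.5 ± 62.9 CPM over the negative libraries (SD, n = 4 each), with a log2 fold change of -0.59 (95% interval -1.06 to -0.13). The accessory subunit MTF2 was at -0.47 and PHF1, another accessory subunit, at 0.68 (0.14 to 1.21). These 3 of 12 had an unadjusted p under 0.05, against 14.4% of all rows, and their edgeR adjusted p ranged from 0.312 to 0.323. RBBP4 and MTF2 were highest in negative 2, and without it RBBP4 was at -0.40 (edgeR unadjusted p = 0.0513). In that setting 4 of the 12 were below 0, with a median of 0.10. At an unadjusted p under 0.05, 0 were lower and 2, PHF1 and EZH2, higher, against 9.70% of all rows. With all 8 libraries, 9 of 14 tested rows of Polycomb complex 1 were below 0, with a median of -0.07. RING1 had duplicate rows with the same counts in every library, so this gene enters both counts more than once. Without negative 2, 10 of the 14 rows were below 0, with a median of -0.06. Over all 8 libraries BMI1 was the 1 with an unadjusted p under 0.05, against 14.4% of all rows. PCGF6 was at -0.43 (-1.04 to 0.18), and 0.04 without both positive 1 and negative 2.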

How the data were processed

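RNA was measured in 4 positive and 4 negative libraries. Per the labels' protocols, a targeted amplicon kit (Ion Torrent) was used, so counts do not scale with transcript length. The table deposited by the authors gives each gene's estimated count, as whole numbers that rounding did not alter. Per the submitters' processing notes, fastp 0.20.1, Salmon 1.9 and GRCh38 were used. The annotation, strand setting and row filter were not stated in the sources at hand. Rows kept by filterByExpr (minimum count 10, total 15) were tested with edgeR 4.0.16 in R 4.3.3 (TMM scaling, robust quasi-likelihood fit), adjusted by Benjamini-Hochberg over all tested rows, with 95% intervals. Ratios used a pseudocount of 0.5 and an exact permutation test over 70 assignments. Amplicon reads carry no molecular identifiers.

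Members, lists, tests and the rule for named genes (all members, the non-member of smallest p in each direction of 6 lists, and 4 proliferation markers) were chosen with earlier results of these data known. A single gene of this rule is not reported here. EZH1, CBX1, CBX3, H2AFY2, HMGN2, MTF2 and HMGB1P39 were named after their values were seen. Alternatives were other scalings and filters, DESeq2 1.42.0, limma 3.58.1 (voom), thinning, and libraries left out. The addition of HMGB1P39 was chosen after seeing the data. On simulated counts (3 runs), edgeR recovered 1.49%, 35.3% and 94.9% of genes changed 1.5-, 2- and 4-fold, and 5.76% of its calls were false. Each gene was drawn independently, so no simulated library stood apart as positive 1 and negative 2 did. These rates may therefore not hold for the measured libraries.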

Additional observations from a re-analysis of the deposited data

Results flagged for a closer look

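In 10 of 56 groups of 4 libraries examined, 1 library lay far from the other 3. The rule flags about 1 in 20 by chance, but only for genes picked without regard to the data. The named genes were chosen with earlier results known, and the share over all tested rows is not given here. The 10 flags can therefore not be set against that rate. In the positive group LMNA was at 248 CPM in positive 1, against 62.8 to 92.0 in the others. In the negative group LBR was at 46.7 CPM in negative 2, against 28.9 to 31.7. Negative 2 also stood far from the other negative libraries for TRIM28 (711 CPM, others 505 to 539), PCGF6 (31.4, others 14.8 to 16.4), TOP2A (558, others 257 to 305), CCNA2 (245, others 60.8 to 84.6) and PLK1 (157, others 49.1 to 59.0). Positive 5 was apart from the other positive libraries for CCNA2 (73.9 CPM, others 43.0 to 46.8), PLK1 (53.0, others 31.2 to 33.9) and the log2 ratio of HMGB1 to HMGB2 (-4.43, others -3.71 to -3.61). These genes share libraries, so they are not independent of each other.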

How the results depend on the processing

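With 0 calls in the main analysis, DESeq2's Wald test called 52 rows over all genes, and leaving out single libraries gave 0 to 1, with 1 call without negative 6 and 1 without negative 8. No alternative called a member (0 to 0 with single libraries left out). Without negative 6, 4 of 9 members had an unadjusted p under 0.05 in edgeR's test, against 15.48% of rows. In the other alternatives, each by its own test, 0 to 2 members did. LMNB1, LBR, CBX5, H2AFY, EZH2 and BMI1 kept their direction in all 18 alternatives, though LMNB1 was at -0.12 and CBX5 at -0.14 without negative 2. The alternatives reuse the same libraries, so they are not independent of each other. The share of all rows that kept their direction was not computed. LMNA, at up to 0.58 (without positive 4), turned to -0.24 without positive 1, -0.21 without both positive 1 and negative 2 and -0.12 in limma voom, MKI67 to -0.021 in limma voom and PCGF6 to 0.042 without both libraries.

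Values near 0 changed sign easily. HMGB1 was at 0.12 with library totals, 0.059 with upper quartile scaling, -0.38 without positive 1, 0.28 without negative 2, 0.13 without positive 3, 0.17 without positive 5, 0.045 without negative 8 and 0.073 with HMGB1P39 added. HMGB2 was at 0.10 with library totals, 0.056 with upper quartile scaling, -0.28 without positive 1, 0.039 with at least 50 counts, 0.03 without negative 2, 0.15 without positive 3, 0.03 without positive 4, 0.02 without positive 5 and 0.11 without negative 8. The difference in the log2 ratio of HMGB1 to HMGB2 ranged from -0.15 to 0.21 with single libraries left out and was -0.06 without positive 1, -0.03 without positive 3, -0.06 without positive 4, -0.15 without negative 7 and -0.03 without negative 8. That of EZH2 to EZH1 ranged from -0.20 to 0.30 and was -0.05 without positive 1, -0.08 without positive 4, -0.20 without negative 6 and -0.04 without negative 7, and that of LMNB1 to LMNA from -0.91 to -0.28.

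The planned ratio of LMNB1 to LMNB2 was not run. No paired analysis was possible because each library number was used once in the labels. With 50 counts or more, HMGB1 left the test. Over all rows, 95% intervals reached a median of 0.54 to each side on the log2 scale.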
